A study of Homo sapiens with 6 samples.

Results

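The HOX cluster genes were examined in REH, a human cell line of B-cell precursor acute lymphoblastic leukemia (BCP-ALL), which carries the ETV6/RUNX1 fusion and has lost its other ETV6 allele. Members were the Agilent catalogue probes whose RefSeq accession maps to a symbol made of HOX, the letter A, B, C or D and a number. This rule found 42 of the 57176 probes on the array. They stand for 38 of the 39 HOX genes named by RefSeq and are part of 19721 genes named on the catalogue probes. HOXA6 had no matching probe. Expression was measured on 6 one-color arrays, 3 of cells given a short hairpin RNA (shRNA) that is labelled non-targeting (control below) and 3 of cells given an shRNA against the fusion (knockdown below). According to the study's methods, both hairpins were made against ETV6 and delivered by lentivirus with green fluorescent protein (GFP), and the hairpin that did not hit the fusion transcript served as the control. GFP-positive cells were sorted in both groups a few days after transduction. All samples are thus a single cell line with 1 hairpin per group, and an effect of a hairpin on other transcripts cannot be told apart from the loss of the fusion. The study calls the arrays biological triplicates without saying how the cultures were separated, and n = 3 arrays per group throughout.

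HOX genes encode homeodomain transcription factors that set position along the body axis, and they lie in clusters in which the genes of low number sit at one end and those of high number at the other. Genes of the same number in different clusters are paralogues. In blood, HOXA and HOXB genes are active in stem and progenitor cells and decline as cells mature. High HOXA9 and HOXA10, together with the cofactor MEIS1, are well known from acute leukemias with rearranged MLL (KMT2A), a histone methyltransferase that keeps HOX genes active. Polycomb complexes oppose it and keep HOX genes silent. ETV6 and RUNX1 are transcription factors themselves, of the ETS and RUNX families.

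Promoter sequence is shown for 5 genes of the HOXA cluster, on chromosome 7, because they span what the arrays recorded there: HOXA4 and HOXA9 were dimmer on every knockdown array by 1 probe each, HOXA13 was brighter, HOXA10 was bright with overlapping groups, and HOXA11 was never above background. Each window of 300 bases runs 5′ to 3′ on the minus strand of GRCh38.p14 and ends 50 bases after a RefSeq start, and for HOXA10 it belongs to the upstream start. Capitals mark the core letters GGAAGT of an ETS site, searched on both strands (on the other strand ACTTCC).
HOXA4, chr7:27130708-27131007: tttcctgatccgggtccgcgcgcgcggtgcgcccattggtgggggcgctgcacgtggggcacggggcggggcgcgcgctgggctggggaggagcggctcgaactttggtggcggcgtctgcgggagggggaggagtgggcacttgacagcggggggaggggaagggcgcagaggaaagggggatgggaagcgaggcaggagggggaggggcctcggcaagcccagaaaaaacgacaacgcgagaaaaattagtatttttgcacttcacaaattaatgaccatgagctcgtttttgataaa
HOXA9, chr7:27165488-27165787: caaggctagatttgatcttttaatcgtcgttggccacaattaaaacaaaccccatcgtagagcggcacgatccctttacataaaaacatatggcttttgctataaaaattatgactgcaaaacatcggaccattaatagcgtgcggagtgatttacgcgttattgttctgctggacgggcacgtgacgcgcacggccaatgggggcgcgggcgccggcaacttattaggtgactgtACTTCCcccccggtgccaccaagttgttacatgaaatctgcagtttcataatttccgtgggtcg
HOXA10, chr7:27179812-27180111: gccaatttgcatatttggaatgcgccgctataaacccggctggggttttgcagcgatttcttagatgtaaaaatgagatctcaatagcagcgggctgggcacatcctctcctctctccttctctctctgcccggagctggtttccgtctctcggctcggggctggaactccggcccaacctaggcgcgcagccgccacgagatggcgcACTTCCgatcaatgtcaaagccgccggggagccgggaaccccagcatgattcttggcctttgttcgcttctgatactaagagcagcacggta
HOXA11, chr7:27185183-27185482: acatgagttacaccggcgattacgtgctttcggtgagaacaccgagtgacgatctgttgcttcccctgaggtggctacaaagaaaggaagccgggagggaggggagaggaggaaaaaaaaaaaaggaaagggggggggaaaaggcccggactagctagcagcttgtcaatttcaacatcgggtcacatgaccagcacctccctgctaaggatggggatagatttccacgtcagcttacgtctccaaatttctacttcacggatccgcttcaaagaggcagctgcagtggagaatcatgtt
HOXA13, chr7:27200042-27200341: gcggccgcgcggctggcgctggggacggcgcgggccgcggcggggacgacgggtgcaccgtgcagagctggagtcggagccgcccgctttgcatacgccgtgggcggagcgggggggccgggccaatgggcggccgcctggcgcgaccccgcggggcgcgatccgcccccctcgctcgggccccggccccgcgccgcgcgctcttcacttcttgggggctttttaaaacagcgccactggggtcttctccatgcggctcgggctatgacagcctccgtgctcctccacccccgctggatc

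RefSeq start windows were found for 20 of the HOX genes, 27 windows in all. HOXA5 was among those with no entry. The ETS letters occurred in 2 of the 27 windows, those of HOXA9 and HOXA10 printed above, and in 22.8% of the 35116 windows of all genes. The letters TGTGGT or TGCGGT of a RUNX site, on both strands, were found in none of the 5 printed windows, in 5 of the 27 HOX windows (HOXA3, HOXC4, HOXC5 and HOXD10) and in 19.6% of all windows. HOX windows had a median of 22 CpG dinucleotides against 14 over all windows. Among the printed ones, HOXA13 had 44, HOXA4 had 27, HOXA9 had 22, HOXA10 had 21 and HOXA11 had 13. These matches are counts of letters in short windows, and no binding was measured.

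Median raw intensity was 66 to 75 per array against 42.3 to 48.0 for the 308 negative control spots, and 45.7% to 50.9% of all probes carried the scanner's flag for a signal well above background. Control 3 had the lowest share and the highest negative control limit. Normalized values were correlated between arrays with Pearson's r of 0.986 to 0.996 across probes, and replicates of a group had a median SD of 0.15 (log2). Values below are generalised log2 intensities, close to log2 where a probe is bright and compressed where it is dim. ETV6, the target of the knockdown hairpin, read 8.11 ± 0.23 (SD, n = 3) in control and 7.41 ± 0.11 in knockdown, with groups that did not overlap (log2 fold change -0.70, SE 0.14, limma adjusted p = 0.0513, called under 4 of 19 alternative settings, and -0.36 with spike-in scaling). The place of this probe relative to the fusion breakpoint is not given in the sources used here. The study itself reports that the fusion was silenced in these cells, examined by western blot for protein and by RT-qPCR for transcript. None of the 5 RUNX1 probes was called, with log2 fold changes from -0.26 to 0.03. Of 19 probes for B-cell precursor genes such as CD79A, EBF1 and PAX5, 17 were above background on all 6 arrays, and the 2 others were the probes for VPREB1, a surrogate light chain gene.

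First, signal over background was determined for each HOX probe. The HOXA cluster had the highest share of the clusters: 9 of its 12 probes (75%) were well above background on all 6 arrays, and these stand for 8 of its 10 measured genes, namely HOXA2, HOXA3, HOXA4, HOXA5, HOXA7, HOXA9, HOXA10 and HOXA13. In the HOXB cluster 1 of 11 probes (HOXB9) was so, in HOXC 2 of 9 (HOXC4 and HOXC9) and in HOXD 0 of 10. Over all 34134 catalogue probes the share was 58.4%, and over 54 probes for 50 other homeobox genes it was 29.6%, or 16 probes. HOX probes as a whole, with 12 of 42 on all arrays and 24 on no array, lay below the catalogue. Since members of a cluster are not replicates, no test was made between clusters.

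The mean share over the 6 arrays was 75% for HOXA, with the same 9 probes on every array, 13.6% ± 4.98 (SD over arrays) for HOXB, 27.8% ± 6.09 for HOXC and 11.7% ± 11.7 for HOXD. Control and knockdown arrays overlapped in all 4 clusters. By position in the cluster, 2 of 9 probes for paralogues 1 to 3, 4 of 14 for paralogues 4 to 8 and 6 of 19 for paralogues 9 to 13 were above background on all arrays. A limit set on the negative controls in place of the flag gave the same 9 HOXA probes, but left 0 HOXB probes and 1 HOXC probe over it on all 6 arrays. With the scanner's weaker flag for signal positive and significant, the mean shares rose to 81.9% for HOXA, 36.4% for HOXB, 40.7% for HOXC and 30.0% for HOXD. Under that flag all catalogue probes averaged 77.8%, and those with a gene symbol 80.3%, so HOXA stood close to the catalogue, and on knockdown 1 it lay below it (75% against 77.2%).

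**Figure D1:**
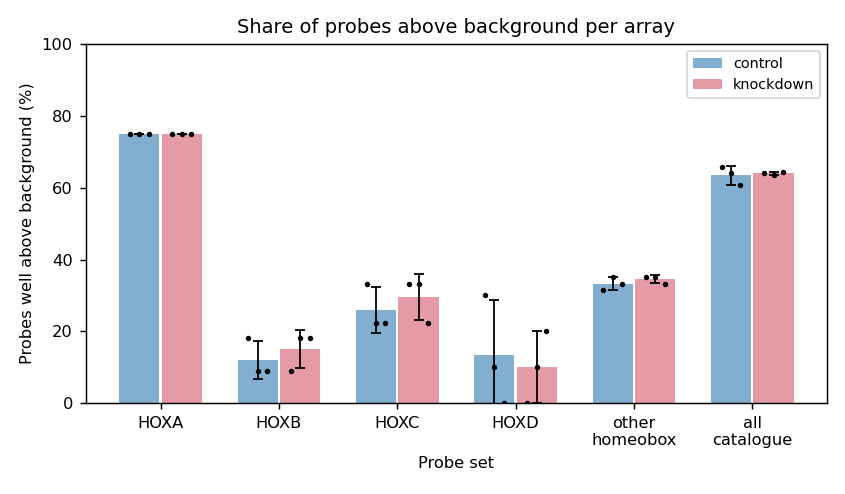
Share of probes flagged as well above background, in percent, for the 4 HOX clusters, other homeobox genes and all catalogue probes. Bars are means of 3 control (blue) or 3 knockdown (red) arrays, points are single arrays and error bars are SD, clipped at 0. HOXA sat at 75% on every array, above the 63.7% mean of all catalogue probes, and the other clusters averaged 27.8% or less.

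The other HOX genes fell into those never well above background and those above it on some arrays. Among those on no array was HOXA11, which acts in the limb and the uterus. In HOXB the genes on no array were HOXB1, HOXB2, HOXB3, HOXB5, HOXB6, HOXB7, HOXB8 and HOXB13, in HOXC they were HOXC5, HOXC8, HOXC11, HOXC12 and HOXC13, and in HOXD they were HOXD1, HOXD3, HOXD4, HOXD8, HOXD11 and HOXD12. Raw intensities of the 24 probes well above background on no array ran from 38.5 to 61.0, against 0.95 quantiles of 49.0 to 67.8 for the negative controls of the 6 arrays. With the weaker flag for signal positive and significant, only 11 of the 42 HOX probes were on no array. A low value on a probe is an upper bound set by this probe and does not show that the transcript is missing. HOXA10 illustrates the point: its probe A_24_P77904 was on no array above background, with 5.01 ± 0.20 in control, while its probe A_33_P3288649 read 11.26 ± 0.20, and both match the same gene. HOXD1 was the single HOX gene with repeated spots, and its 5 spots agreed on each array with an SD of 0.12 to 0.23.

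The remaining genes, HOXB4, HOXC6, HOXC10, HOXD9, HOXD10 and HOXD13, were above background on some arrays. HOXC10 had a raw intensity of 210.5 on knockdown 1 and was not well above background on the other 5 arrays. Its mean in knockdown was at least 1.26-fold higher than in control, a bound that rests on 1 array. HOXD13 had a raw intensity of 82.5 on control 1 and was at background on the other 5. Each of these signals thus comes from a single array and is no difference between the groups. HOXB4 and HOXD10 were each above background on 1 control and 2 knockdown arrays, HOXC6 on 1 of each, and 1 HOXD9 probe on 2 control arrays and 1 knockdown array. The second HOXD9 probe was well above background on no array.

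**Figure D2:**
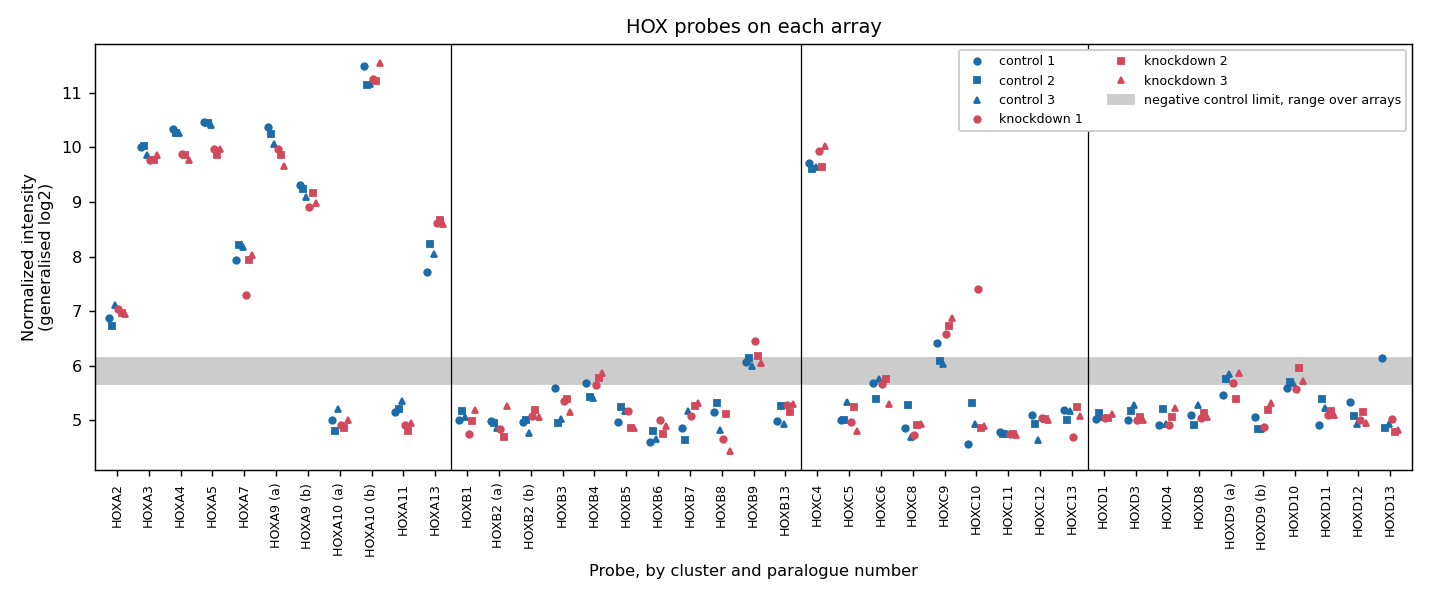
Normalized intensity (generalised log2) of the HOX probes named in the text on the 3 control (blue) and 3 knockdown (red) arrays, ordered by cluster and paralogue number, with (a) and (b) for 2 probes of a gene. The grey band spans the negative control limits of the 6 arrays, 5.66 to 6.15. All points of 9 HOXA probes and HOXC4 lie above the band. Heights of different probes cannot be compared as transcript levels.

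Next, the 3 knockdown arrays were compared with the 3 control arrays to study HOX expression when the fusion is silenced. Within the HOXA cluster, probes of HOXA3, HOXA4, HOXA5 and HOXA9 were dimmer on every knockdown array than on any control array, HOXA3 by a margin too small to show in its printed values, whereas the HOXA13 probe was brighter on every knockdown array. HOXA5 alone passed the test without a block, at 1.43-fold lower. With the replicate number as a block HOXA4 and HOXA13 passed as well. HOXC9 was brighter on every knockdown array and did not pass. The remaining retained probes overlapped between groups. In total, 14 of the 42 HOX probes, for 13 genes, passed the filter on dim probes and were tested among 27425 probes.

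Of the 14 tested HOX probes, 1 was called at an adjusted p under 0.05, lower in knockdown, against 1.74% of all tested probes (1.28% lower and 0.459% higher). A single call among 14 probes is too few to set them apart from that background. At an unadjusted p under 0.05 there were 5 (HOXA4, HOXA5, HOXA9, HOXA13 and HOXC9), against 12.5% of all tested probes. Groups did not overlap for 6 probes, 4 lower and 2 higher, against 18.9% of all tested probes (9.87% lower and 9.02% higher). The log2 fold changes of the 14 probes ran from -0.51 to 0.63 with a median of 0.08, and the median over all tested probes was 0.00. That median depends on which probes are kept: it was -0.03 over all 42 probes without a filter (25 lower and 17 higher) and -0.18 over the 10 probes above the limit on all 6 arrays, and it was 0.42 with spike-in scaling, which moved the median of all probes to 0.34. Probes HOXB4 and HOXD10 entered the test through knockdown 2 and 3, so the tested probes are not a fair sample of all 42.

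**Figure D3:**
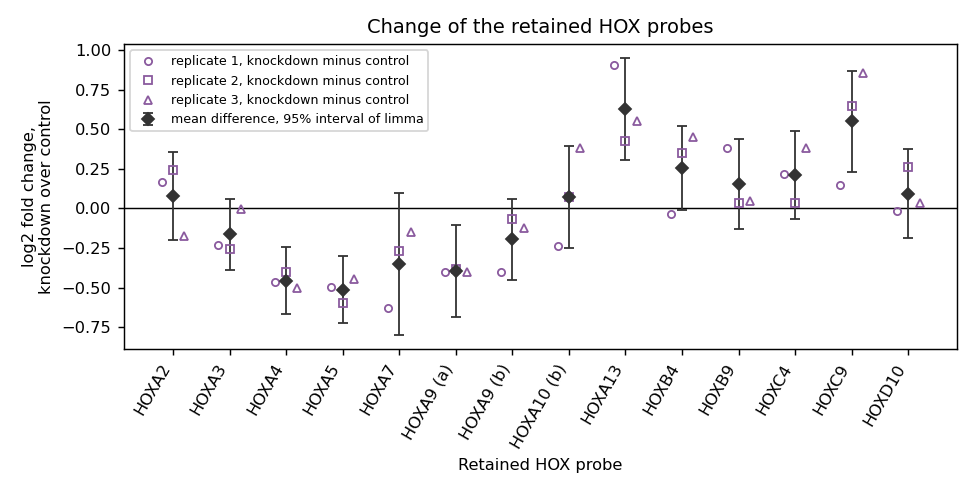
log2 fold change (knockdown over control) of the 14 tested HOX probes in cluster order. Open symbols are differences between arrays of the same replicate number, diamonds the mean difference and bars its 95% interval from limma. Intervals of HOXA4, HOXA5, HOXA9 (a), HOXA13 and HOXC9 leave out 0, and only HOXA5 passed the adjusted threshold in this fit without a block.

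HOXA5 encodes a homeodomain factor that is active in early blood progenitors. Its probe A_23_P93772 read 10.46, 10.45 and 10.41 on controls 1 to 3 and 9.96, 9.85 and 9.96 on knockdowns 1 to 3. Both groups were tight and far apart. The log2 fold change was -0.51 (SE 0.09, limma adjusted p = 0.0347; exact permutation p = 0.1, two-sided, the smallest that 3 against 3 arrays can give). The call held without knockdown 1 (adjusted p = 0.0485) and ended without each of the other 5 arrays, with an adjusted p of 0.109 without control 1, 0.183 without control 2, 0.121 without control 3, 0.154 without knockdown 2 and 0.109 without knockdown 3, at log2 fold changes of -0.53 to -0.48. It also ended with the 75th percentile of the processed signal (adjusted p = 0.0819), with no filter on dim probes (0.103) and without replicate 1 of both groups (0.0550), where HOXC9 was the single HOX probe called. With the row of the slide as a term the adjusted p was 0.355, where control 3 is the only control in the row of the knockdowns and the mean knockdown minus control 3 was -0.48. Scaling on the spike-in spots, which adds 0.34 to the log2 fold change of each probe, gave -0.17 (adjusted p = 0.563), and the 2 HOX probes called under it were HOXA13 and HOXC9, both higher.

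HOXA4 lies next to HOXA5 in the cluster. Its values were 10.33, 10.25 and 10.26 in control and 9.87, 9.86 and 9.76 in knockdown, also without overlap. The log2 fold change was -0.46 (SE 0.09) and just missed the threshold (adjusted p = 0.0582). It passed with the replicate number as a block (adjusted p = 0.0436), with normexp and quantile normalization (0.0301) and with an intensity trend and robust prior (0.0452). With spike-in scaling its value shrank to -0.11 (adjusted p = 0.700). Its size and SE were close to those of HOXA5, and the difference between the changes of HOXA4 and HOXA5 was not tested.

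HOXA9, the member best known from leukemia, had a pair of probes. Probe A_23_P500998 read 10.37, 10.24 and 10.06 in control and 9.97, 9.85 and 9.65 in knockdown, so each knockdown array was below every control. The change was -0.40 (SE 0.13, adjusted p = 0.234, and 0.0629 with the block). All 3 differences between arrays of the same number lay between -0.40 and -0.38, but with spike-in scaling the value was -0.05 (adjusted p = 0.858). The second probe, A_33_P3416231, read 9.31, 9.23 and 9.10 in control and 8.91, 9.17 and 8.98 in knockdown. Its log2 fold change was -0.20 (SE 0.11, adjusted p = 0.531) and knockdown 2 lay within the control range, so the probes of HOXA9 had the same sign but different sizes. With both averaged the value was -0.30 (SE 0.11, adjusted p = 0.302).

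HOXA3 and HOXA7 complete the group with negative values. HOXA3 read 10.01, 10.03 and 9.86 in control and 9.78, 9.77 and 9.86 in knockdown, where control 3 lay above knockdown 3 by less than the printed digits show (-0.16, SE 0.10, adjusted p = 0.549). HOXA7 read 7.93, 8.21 and 8.18 in control against 7.30, 7.94 and 8.03 in knockdown, and its groups overlapped (log2 fold change -0.35, SE 0.19, adjusted p = 0.521). Knockdown 1 lay apart from the other 2 knockdown arrays for this gene, and without it the value was -0.12. With spike-in scaling it was -0.0064.

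HOXA13, at the far end of the cluster and known for limb and urogenital development, had the largest positive value in the main fit. Without replicate 1 of both groups HOXC9 had the larger value (0.75 against 0.49). The HOXA13 probe read 7.71, 8.24 and 8.05 in control and 8.62, 8.66 and 8.60 in knockdown. The knockdown arrays were tight and the controls spread, with control 1 lowest. The log2 fold change was 0.63 (SE 0.14, adjusted p = 0.0856; 0.0426 with the block, which called it). With spike-in scaling it was called at 0.97 (adjusted p = 0.00361). HOXA10, between HOXA9 and HOXA11, read 11.49, 11.13 and 11.16 in control and 11.25, 11.21 and 11.54 in knockdown, and the log2 fold change of 0.07 had a 95% interval of -0.25 to 0.40. HOXA2 read 6.88, 6.73 and 7.12 against 7.05, 6.97 and 6.94, with an interval of -0.20 to 0.36. For both genes the groups overlapped, and changes within these intervals could not be told from 0.

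**Figure D4:**
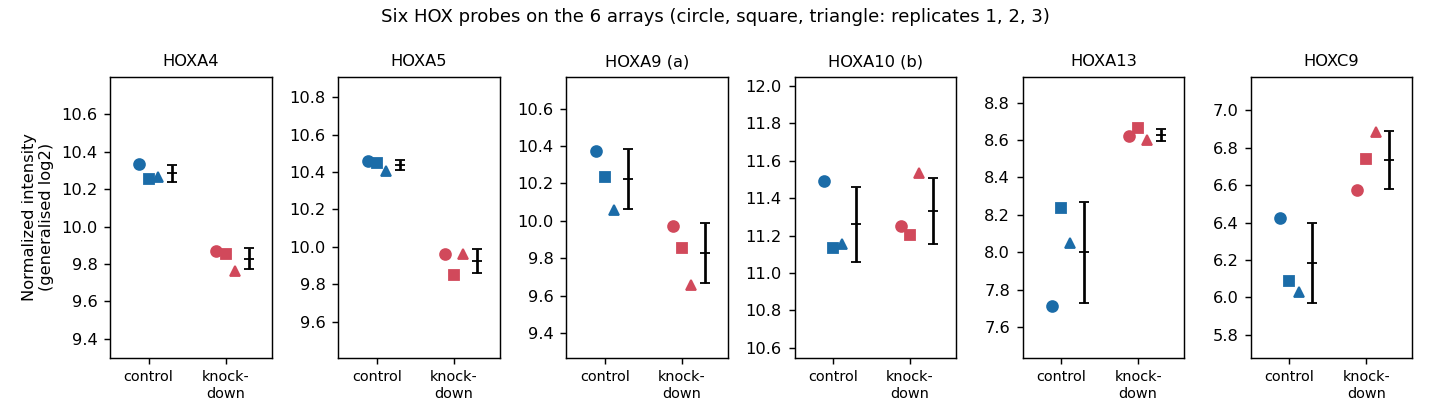
Normalized intensity (generalised log2) of 6 HOX probes on each array, the 5 of lowest p and HOXA10, with control in blue and knockdown in red. Circles, squares and triangles are replicates 1, 2 and 3, and bars are mean and SD (n = 3). Every panel spans the same height. HOXA4, HOXA5 and HOXA9 (a) are lower on every knockdown array, HOXA13 and HOXC9 are higher, and HOXA10 overlaps.

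Outside HOXA, 5 probes were tested and none was called. HOXC9 read 6.43, 6.09 and 6.03 in control and 6.58, 6.74 and 6.88 in knockdown, close to the negative control limits (log2 fold change 0.55, SE 0.14, adjusted p = 0.124). Without replicate 1 of both groups it was called at 0.75 (adjusted p = 0.0182), and with spike-in scaling at 0.89 (adjusted p = 0.0103). HOXC4, a bright probe of a gene active in lymphoid cells, read 9.71, 9.61 and 9.64 in control and 9.92, 9.65 and 10.02 in knockdown (0.21, SE 0.12, adjusted p = 0.531). HOXB9 read 6.07, 6.14 and 6.00 against 6.45, 6.17 and 6.05, and its groups overlapped. HOXB4, a gene of stem cell self-renewal, and HOXD10 were above background on only 3 of the 6 arrays each, so that their fitted log2 fold changes of 0.26 and 0.09 (adjusted p = 0.419 and 0.807) rest in part on values at background.

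At the level of genes, with probes of a gene averaged, HOXA5 was again the single HOX gene of 13 called, against 1.72% of 23496 gene-level rows. With the replicate number as a block, 3 HOX probes were called (HOXA4 and HOXA5 lower, HOXA13 higher), against 3.78% of all tested probes (2.43% lower and 1.36% higher). Of the 9 tested HOXA probes 6 had negative values. With spike-in scaling 4 did, since HOXA3 and the second HOXA9 probe pass 0 by the shift of 0.34 given to each probe. The median of all probes moves by the same shift, so the place of a probe relative to that median cannot change. The signs of the 5 tested probes of HOXB, HOXC and HOXD are not counted together, since HOXB4 and HOXD10 passed the filter only through the knockdown group. In the slide row that holds control 3 and all knockdowns, the mean knockdown minus control 3 was -0.43 for HOXA4, -0.23 for the first HOXA9 probe, 0.58 for HOXA13 and 0.70 for HOXC9. With the row as a term no HOX probe was called, at adjusted p of 0.460 for HOXA4, 0.895 for the first HOXA9 probe, 0.548 for HOXA13 and 0.301 for HOXC9. Probes were not independent of each other, and no difference between clusters was tested.

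Genes around and over the clusters were read next. For each list the shares over all tested probes are those given above, 1.74% called, 12.5% at an unadjusted p under 0.05 and 3.78% called with the block. Non-coding transcripts of the clusters had 7 probes for 5 of 20 listed genes, and 4 were tested. HOXA-AS3, which runs antisense through the HOXA cluster, was called lower by its probe A_33_P3272957, which read 6.04, 5.81 and 5.76 in control and 5.31, 5.22 and 5.19 in knockdown. This probe was above background on 2 control arrays and no knockdown array, so its change is a bound, at least 1.43-fold lower (adjusted p = 0.0333). It passed the filter only through controls 1 and 2, in the group where it was bright, so this call is not a fair test. The call ended without control 1 (adjusted p = 0.0869), control 2 (0.130), control 3 (0.0760), knockdown 2 (0.139) or knockdown 3 (0.139). It also ended with normexp and quantile normalization (log2 fold change -0.30, adjusted p = 0.145) and with spike-in scaling (-0.28, adjusted p = 0.364), where the change is smaller than that bound, and with no filter (0.102) and the slide row as a term (0.398). Another HOXA-AS3 probe had a log2 fold change of -0.55 (adjusted p = 0.123). HOXA11-AS read 8.71, 8.81 and 8.64 in control and 8.45, 8.26 and 8.40 in knockdown (-0.35, adjusted p = 0.184, or -0.0078 with spike-in scaling), and HAGLR of the HOXD cluster overlapped between groups. HOTAIR and HOXB-AS3 were well above background on no array.

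Protein-coding neighbours outside the clusters had 19 tested probes and 0 calls (2 at an unadjusted p under 0.05), with a median log2 fold change of -0.02. SKAP2, a signalling adaptor gene beside the HOXA cluster, read 12.37, 12.19 and 12.09 in control and 11.81, 11.62 and 11.71 in knockdown (-0.51, SE 0.11, adjusted p = 0.0808), and it was called with the block (adjusted p = 0.0379), with normexp and quantile normalization (0.0440) and with trend and robust prior (0.0499), whereas spike-in scaling gave -0.16 (adjusted p = 0.580) and the slide row as a term an adjusted p of 0.660. HIBADH, on the other side of HOXA, had a value of 0.14 (adjusted p = 0.634). CBX1, near HOXB, read -0.26 (adjusted p = 0.381).

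Cofactors and regulators of HOX genes showed no call. HOX proteins bind DNA with PBX and MEIS partners, and 5 of 10 such probes were above background on all arrays, those for PBX2, PBX3, PBX4 and PKNOX1. The MEIS1, MEIS2 and MEIS3 probes were well above background on no array. The 5 tested cofactor probes ran from -0.11 to 0.23 (PBX4 0.23 and PBX3 0.13), with 0 called and 0 at an unadjusted p under 0.05. Of the MLL and trithorax list 27 probes were tested with 0 called and 4 at an unadjusted p under 0.05, with a median of -0.02, among them KAT7 at 0.25 and AFF1 at -0.27. The Polycomb list had 34 probes, all above background, 0 called and 5 at an unadjusted p under 0.05. PHF19, a Polycomb accessory subunit, read 9.60, 10.07 and 9.97 in control and 10.44, 10.92 and 11.05 in knockdown (0.92, SE 0.19, adjusted p = 0.0618), and it was called with the block (adjusted p = 0.00632), without knockdown 1 (0.0187), with trend and robust prior (0.0465) and with spike-in scaling at 1.26, while its second probe overlapped between groups. CBX7, which reads a Polycomb mark, had 0.40 (adjusted p = 0.141). Upstream regulators, among them retinoic acid receptors and CDX genes, had 13 tested probes, 0 called and 1 at an unadjusted p under 0.05, with RARG at 0.36 and RARA at 0.18.

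Targets of HOXA9 and MEIS1 had 12 tested probes for 10 genes, of which 2 were called, both for ID2 and both lower, against 1.28% called lower over all tested probes. ID2 encodes an inhibitor of basic helix-loop-helix factors. Its probe A_23_P143143 read 10.21, 9.93 and 9.90 in control and 9.0, 9.09 and 9.19 in knockdown (-0.92, SE 0.12, adjusted p = 0.00882). The other ID2 probe, A_32_P69368, changed by -0.94 (adjusted p = 0.0115). The first lost its call without knockdown 2 (adjusted p = 0.0505), and the second without control 2 (0.0535), knockdown 2 (0.0552) or knockdown 3 (0.0669). Both also lost it with spike-in scaling (-0.58, adjusted p = 0.140, and -0.59, adjusted p = 0.134) and with the slide row as a term (0.137 and 0.165). Neither ID2 probe overlapped between groups. The median of the list was -0.15, FLT3 and MYB overlapped between groups, and CDK6 had 0.33 (adjusted p = 0.219). LMO2, a transcriptional cofactor of blood progenitors, had -0.55 (adjusted p = 0.373) and was called with the block (adjusted p = 0.0453). Other homeobox genes had 17 tested probes and 0 calls (5 at an unadjusted p under 0.05), led by HHEX at -0.62 (adjusted p = 0.133) and HLX at -0.38 (adjusted p = 0.164). HMX2 at 0.64 (adjusted p = 0.248) was called with the block (adjusted p = 0.0338).

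**Figure D5:**
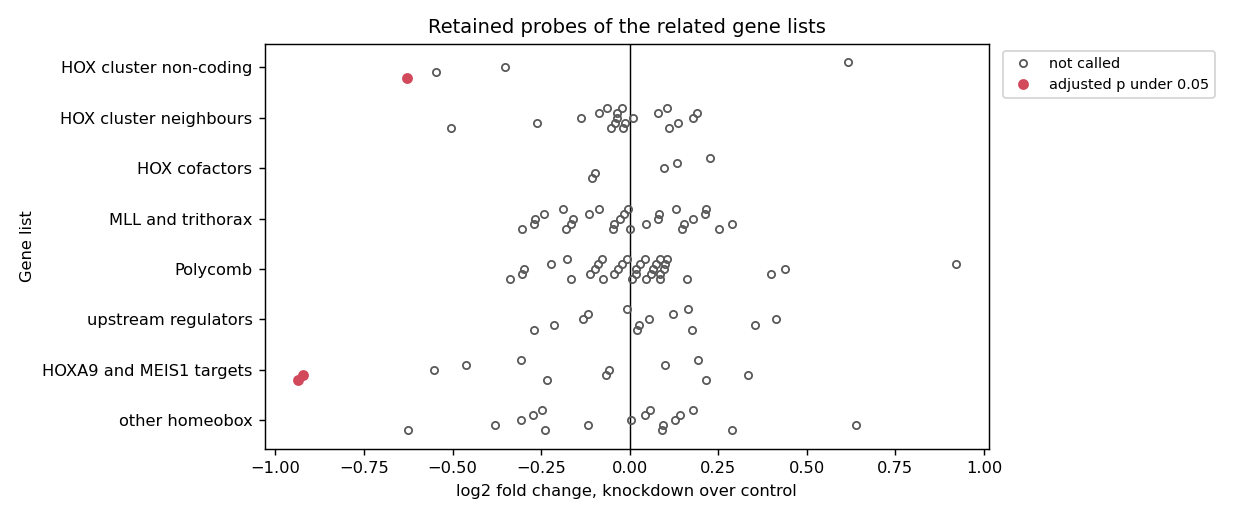
log2 fold change (knockdown over control) of the tested probes in 8 gene lists around the HOX genes. Each point is a probe, filled where the adjusted p was under 0.05, and points are shifted in height only to separate them. The 3 filled points are both ID2 probes and a HOXA-AS3 probe, all lower in knockdown. The HOXA-AS3 probe passed the filter only through the control group, where it was bright, so its call is not a fair test.

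Single genes among the markers of progenitor and myeloid cells, MECOM and MPO, fell in the same comparison. Of the stem and progenitor markers, 8 of 11 probes were tested and 3 were called, all of them for MECOM, a zinc finger factor of stem cells (-1.28, -1.14 and -0.68), against 1.28% called lower over all tested probes. A CD34 probe and a KIT probe were above background on 2 control arrays and no knockdown array, and neither was called. Both passed the filter only through the control group, where they were bright, so no size of change is given for them. Another KIT probe, above background on all arrays, overlapped between groups at -0.30, and the other CD34 probe and HLF were well above background on no array. The call on the weakest MECOM probe ended without control 1 (adjusted p = 0.0563), control 2 (0.105), knockdown 2 (0.0763) or knockdown 3 (0.0796), and with spike-in scaling (-0.33, adjusted p = 0.306), the slide row (0.243) or no filter (0.0546). The summed level of the stem and progenitor list was 2213 to 2293 in control and 1316 to 1477 in knockdown, in units of normalized intensity and over unlike probes. Of 7 myeloid probes 3 were tested and 1 was called, for MPO, the myeloperoxidase gene (-2.02, adjusted p = 0.00107). The other 2 tested, CD14 and CSF1R, had -0.13 and -0.05, and ELANE, CD33, S100A8 and S100A9 were well above background on no array. The summed level of the myeloid list was 15457 to 17126 in control and 3765 to 5541 in knockdown, a sum over unlike probes that follows MPO and not the list as a whole. B-cell precursor markers had 0 calls and 7 of 17 probes at an unadjusted p under 0.05, against 12.5% of all tested probes, with CD22 at 0.67 (adjusted p = 0.0539, called without control 1 at 0.0187). With the block 4 of them were called, all higher, against 1.36% called higher over all tested probes, namely CD22 (adjusted p = 0.0260), CD79B (0.0363) and both IGLL1 probes (0.0375 and 0.0129). Of the 17 tested probes 14 had positive and 3 had negative values, the lowest at -0.44, against 13629 positive values among all 27425 tested probes. The summed level of the B-cell precursor list was 280518 to 295864 in control and 332207 to 371445 in knockdown. It is a sum over unlike probes that the brightest can set, and does not describe the list as a whole. T-cell markers (6 tested probes, 1 at an unadjusted p under 0.05) and erythroid markers (3 tested probes, 0 at an unadjusted p under 0.05) had 0 calls. In these bulk samples fewer cells of a type and less RNA per cell cannot be told apart, and the part of such markers in the HOX values was not tested.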

How the data were processed

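Cy3-labelled RNA was hybridised in 1 color per the labels, and the file headers name Feature Extraction 10.7.1.1 and an hg19 custom design. The authors deposited raw and processed spot intensities, not normalized between arrays, and normalized log2 values for 27869 probes, made with VSN and a filter against negative controls per the study's methods. All 6 arrays were on 1 slide, with controls 1 and 2 in row 1 and the rest in row 2. Raw median intensities were calibrated here with an affine transformation and inverse hyperbolic sine per array, written anew since the vsn package was missing, fitted with the 0.9 quantile of least squares kept. Spots flagged as outliers were dropped, saturation was not seen on any spot, and repeated spots were averaged. Values correlated with the deposited log2 values with r of at least 0.999 across probes. A probe was retained where its value was over 1.1 times the normalized 0.95 quantile of the negative controls on 2 of 3 arrays in either group (the methods ask for 60%). Taking this limit on the normalized and not the raw scale was settled after the numbers of retained probes were seen, since it came close to the deposited number, and before any test of groups. It left 27490 probes, of which 27425 had a value on every array.

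Control and knockdown were tested against each other in limma 3.58.1 (R 4.3.3; lmFit, eBayes, two-sided) with Benjamini-Hochberg adjustment over all 27425 probes. No block was used, since the study's methods name limma without one. A probe is called at an adjusted p under 0.05. A bound divides the mean of the bright group by that of the dim group, in which an array's value below the dimmest flagged probe of that array was raised to it. Deviations from the group means correlated between arrays of the same replicate number with r of 0.43, 0.29 and 0.20. Arrays of different numbers gave r from -0.33 to 0.19, with 0.19 (control 2, knockdown 3) and 0.17 (control 3, knockdown 2) close to the value of replicate 3. All 3 same-number values being over 0.1, the numbers given by the labels were taken to pair the samples, and blocked values are printed where they change a call. On simulated data for this comparison (27425 probes, 200 changed), 82.5% of changed probes were called, 76% of those set to -1 and 66% of those set to 1, and 3.51% of calls were unchanged probes. All set changes were 1 or 2 in size, so these rates do not cover the smaller HOX changes. The simulated noise was independent between arrays, with no pairing and no slide row. Symbols came from RefSeq (GRCh38.p14) by unversioned accession, for 75.4% of 34134 catalogue probes. Members and gene lists were chosen with earlier results of these data known. HOX probes were given values per array where above background on all arrays of a group, and full statistics for the 5 of lowest p. From each list the called members and the 2 of lowest p were named. HOXC10, HOXD13, LMO2, HMX2 and further markers were named after their values were seen. The number of arrays limits the precision. Normalization, background, filter, test, block, slide row and single arrays were varied. A few genes of the lists are not reported here.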

Additional observations from a re-analysis of the deposited data

How the results depend on the processing

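The number of HOX probes called, 1, became 0 with the 75th percentile of the processed signal, 0 with no filter and 0 with the slide row as a term, 2 with normexp and quantile normalization, 2 with spike-in scaling (HOXA13 and HOXC9, both higher, with HOXA5 lost), 2 with an intensity trend and robust prior, and 3 with the replicate block, and without single arrays it ran from 0 to 1. Without replicate 1 of both groups the 1 call was HOXC9. HOXA5 was called under 9 of 19 alternatives, at values between -0.53 and -0.17 (adjusted p between 0.0193 and 0.563), and its sign held in all 19. HOX genes called, 1, became 3 with the replicate block. Probes called in the related lists, 3, became 5 with spike-in scaling (none of the 3 among them), 5 with trend and robust prior, 7 with the replicate block, 0 with the slide row, 6 without replicate 1 of both groups, and 1 to 5 without single arrays. Among these 3, the HOXA-AS3 probe had passed the filter only through the control group. Over all probes 477 were called, against 1080 with spike-in scaling (169 lower and 911 higher), 224 with no filter, 1038 with the block, 234 with the slide row (213 lower and 21 higher), and 193 to 553 without single arrays. The replicate block changed no other HOX call. Signs turned for HOXA3 (0.18) and the second HOXA9 probe (0.15) with spike-in scaling, which adds 0.34 to each probe, for HOXA2 and the second PHF19 probe with the slide row (-0.13 and -0.25), and without single arrays for HOXA2 (-0.0094 to 0.18), HOXA10 (-0.030 to 0.19), HOXD10 (-0.012 to 0.19) and the second PHF19 probe (-0.14 to 0.35), where only knockdown 3 turned HOXA10, knockdown 2 HOXD10, control 2 HOXA2, and control 1, knockdown 2 or knockdown 3 PHF19. Cluster shares moved with the weaker flag to 81.9% (HOXA), 36.4% (HOXB), 40.7% (HOXC) and 30.0% (HOXD), against 77.8% of the catalogue, and counted over genes HOXA had 80.0%. A limit on the raw scale, chosen after seeing the data, kept 1 HOX call. The causes were not tested. Naming probes by a gene name column of the scanner files was not run, as these files hold none. HOX probes at background on all arrays of a group have only a bound there, and 3 arrays per group limit all calls.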
